A study of Mus musculus with 3 samples.

Results

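Transcripts of the hnRNP, SR and snRNP proteins, the RNA-binding proteins and particle subunits of pre-mRNA splicing, were followed in 3 mouse cell populations. The genes were chosen by name alone, as those of the array's gene table whose symbol starts with Hnrnp, Srsf, Sf3a, Sf3b or Snrp. The rule itself uses no measured value, but it was set with earlier results of these data known. Each gene was read by the brightest of its probe sets that name no other gene, as averaged across the 3 arrays. This gave 46 of the 22180 genes measured, made up of 18 hnRNP, 10 SR and 18 snRNP genes. A further 5 symbols, Hnrnpa1, Hnrnph3, Snrpa, Snrpf and Snrpn, occur only on probe sets that name several genes, so they have no value here.

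The 3 populations were type 2 innate lymphoid cells and, of the mast cell lineage, progenitors and mature cells, all from the peritoneal cavity of naive female BALB/c mice aged 10 to 11 weeks. The labels name no allele or agent for any of them. Cells of 5 mice were pooled before sorting, and each array holds the amplified RNA of 100 sorted cells, so a population is 1 pool on 1 array. In such bulk RNA fewer cells that express a gene and less of its RNA per cell cannot be told apart. The gate for both mast cell populations took lineage negative or low, c-kit high, FcεRI positive, T1/ST2 positive cells without CD127 or CD25, which were then divided by side scatter and integrin β7 into progenitors (scatter low, integrin high) and mature cells (scatter high, integrin negative to intermediate). The innate lymphoid cells were lineage negative, FcεRI negative, c-kit negative or low, and positive for CD127, CD25 and T1/ST2. With 1 array per population no value has an error, no difference could be tested, and every comparison sets 1 array against 1 array.

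The sorted cells carried some transcripts of their own kind, though not every marker separated them. The mast cell protease gene Cpa3 had a log2 level of 12.3 in progenitors, against 12.8 in mature and 5.28 in innate lymphoid cells, and Il7r, which encodes CD127, was at 5.89, 5.76 and 8.72. Of 8 mast cell markers 5 were above the array's median on the progenitor array, 8 on the mature and 3 on the innate lymphoid array. Above a level of 8 were 4, 7 and 0 of them. Of the receptors used for the mast cell gate, c-kit and FcεRI had dim transcripts in progenitors. Kit was at 6.89 against 10.29 in mature and 6.63 in innate lymphoid cells, and Fcer1a at 5.37, 8.87 and 5.05. Of 8 innate lymphoid markers 5, 5 and 7 were above the median, and 0, 0 and 3 above a level of 8. Besides Il7r, innate lymphoid cells were highest for Arg1 at 9.49, Klrg1 at 8.11, Il2ra at 7.25 and Il5 at 6.09. Rora was equal on all 3 arrays at 6.64, and Gata3 was nearly so, at 6.76, 6.76 and 6.82. Il13 was highest in progenitors, at 7.65 against 7.41 and 7.41. Markers of macrophages, neutrophils, T cells and eosinophils stayed under a level of 8 on all 3 arrays, and of the 4 B cell markers measured Ighm alone passed it, on every array, at 8.43, 8.24 and 8.24. The progenitor array had 619 genes above a level of 8, against 788 on the mature and 811 on the innate lymphoid array, and this touches all comparisons with progenitors below. Its part in them was not tested.

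Splicing is carried out by the spliceosome, which is built on each intron from small nuclear ribonucleoprotein particles. Each particle holds a small nuclear RNA, a ring of Sm or Sm-like proteins and proteins of its own, and the SF3A and SF3B complexes belong to the U2 particle that binds the branch point. SR proteins have RNA-recognition motifs and a tail rich in arginine and serine, and when bound to exons they mostly favour use of the neighbouring splice sites. The hnRNP proteins coat nascent transcripts and often oppose SR proteins, and many also act in RNA export, stability and translation. In haematopoietic cells, Hnrnpll and Hnrnpl are known for their part in the alternative splicing of the surface phosphatase CD45.

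The results below turn on Hnrnpc, Hnrnpk and Hnrnpu, which were lower in progenitors, and on Snrpc, which was not, so the stretch upstream of each gene is shown for comparison. These are the 250 bases before the RefSeq start, 5′ to 3′ on the gene's strand, from the table of build GRCm38.p6. They lie at chr14:52104022-52104271 on the minus strand for Hnrnpc, chr13:58402118-58402367 on the minus strand for Hnrnpk, chr1:178337816-178338065 on the minus strand for Hnrnpu and chr17:27839837-27840086 on the plus strand for Snrpc. Capitals mark the CCAAT box (CCAAT) and the string CCGGAA, searched on both strands. CCGGAA is called the ETS core here and holds the shorter GGAA bound by ETS factors.
Hnrnpc: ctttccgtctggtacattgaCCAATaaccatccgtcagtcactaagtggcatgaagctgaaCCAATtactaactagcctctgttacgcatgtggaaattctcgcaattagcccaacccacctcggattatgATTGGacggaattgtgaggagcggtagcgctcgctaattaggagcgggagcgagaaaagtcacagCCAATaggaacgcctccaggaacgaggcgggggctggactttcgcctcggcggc
Hnrnpk: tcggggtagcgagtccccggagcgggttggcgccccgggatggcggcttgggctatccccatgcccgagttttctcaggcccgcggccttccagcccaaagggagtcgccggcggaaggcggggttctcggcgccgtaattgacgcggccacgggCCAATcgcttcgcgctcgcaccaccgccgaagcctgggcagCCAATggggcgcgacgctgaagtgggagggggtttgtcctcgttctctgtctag
Hnrnpu: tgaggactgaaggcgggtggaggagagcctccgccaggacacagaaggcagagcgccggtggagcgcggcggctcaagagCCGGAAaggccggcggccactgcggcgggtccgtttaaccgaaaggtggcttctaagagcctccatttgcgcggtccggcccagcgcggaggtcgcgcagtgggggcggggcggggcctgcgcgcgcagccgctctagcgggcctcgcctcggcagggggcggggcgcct
Snrpc: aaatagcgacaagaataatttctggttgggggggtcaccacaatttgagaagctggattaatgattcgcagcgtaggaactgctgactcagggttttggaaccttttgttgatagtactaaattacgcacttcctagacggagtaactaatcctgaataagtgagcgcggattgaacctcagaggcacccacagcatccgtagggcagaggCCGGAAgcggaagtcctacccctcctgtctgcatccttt

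Hnrnpc held 4 CCAAT boxes, Hnrnpk 2, and Hnrnpu and Snrpc 0. The ETS core, as the full CCGGAA, occurred at 1 place each in Hnrnpu and Snrpc and at 0 in Hnrnpc and Hnrnpk. The 3 genes that were lower in progenitors thus did not share either searched string in this window. The shorter GGAA is present in each of these windows and was not counted. The G and C content was 52.8% for Hnrnpc, 69.2% for Hnrnpk, 73.6% for Hnrnpu and 48.4% for Snrpc. Windows were found for 40 of the 46 genes, 53 in all because some genes have several starts, and windows of a gene can overlap. Over these 53 windows the ETS core was in 49.1%, against 12.0% of all 32851 windows. The GC box (GGGCGG) was in 71.7% against 32.7%, the CCAAT box in 45.3% against 33.8%, the TATA box (TATAAA) in 7.55% against 12.4% and the E-box (CACGTG) in 5.66% against 6.02%. These are counts of letters on either strand, and none of the 5 motifs contains another.

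Levels are log2 values, so a difference of 1 is 2-fold and a difference of 2 is 4-fold. A gene was counted when it reached that size and the higher of both levels exceeded the median of its own array, taken over probe sets that name 1 gene and equal to 6.32 for progenitors, 6.30 for mature and 6.30 for innate lymphoid cells. Of the 46 genes, 7 were at or below the median on all 3 arrays, namely Hnrnpr, Srsf1, Srsf10, Sf3a1, Sf3b4, Snrpa1 and Snrpb2, so they could not be counted in any comparison. Exactly equal values on all 3 arrays were deposited for 10 genes. Such ties are frequent in this table, with 45.1% of all 41345 probe sets equal between progenitors and mature cells. By brightest probe sets, 30.4% of the members and 58.3% of all genes were tied between those 2 arrays, so members were tied less often. Genes with a mean level of at least 8 were also tied less often, at 14.6%. The part of brightness in the members' share was not tested. A tie says only that the summary value was the same. A mean level of at least 8 was reached by 13 members and by 693 genes in all. Over the 3 arrays 36 of the 46 genes stayed within 2-fold, but this was not counted over all genes. By pairs of arrays a larger share of members than of all genes was counted at 2-fold. Between progenitors and mature cells 38 of the 46 were not counted at 2-fold, beside 21639 of all 22180 genes. Between progenitors and innate lymphoid cells it was 38 beside 21593, and between mature and innate lymphoid cells 42 beside 21603.

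**Figure D1:**
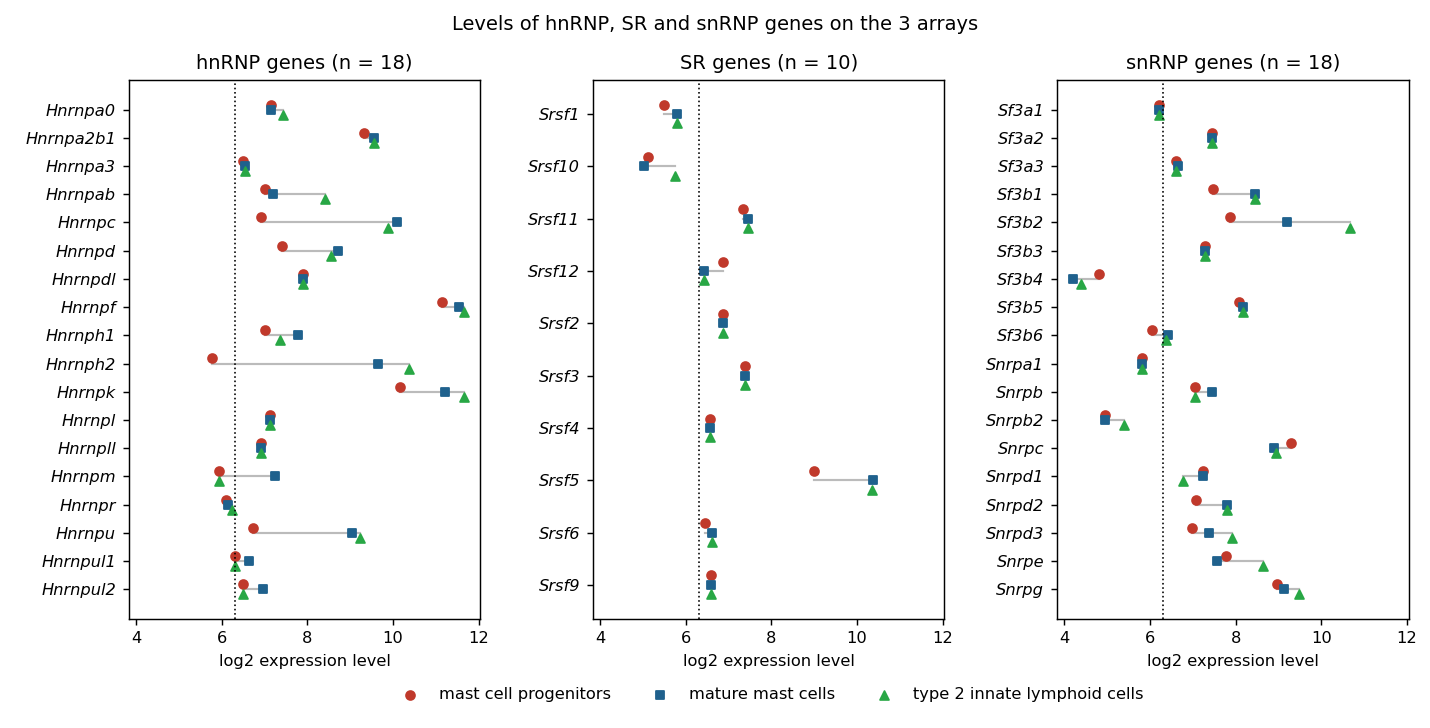
Log2 expression level of each of the 46 genes on the progenitor (circles), mature mast cell (squares) and innate lymphoid (triangles) arrays, with hnRNP, SR and snRNP genes in separate panels. Grey lines join the lowest and highest array, and the dotted line is the mean of the arrays' medians. Hnrnph2, Hnrnpc, Hnrnpu and Sf3b2 have the longest lines, each with the progenitor array at the low end.

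Progenitors were first compared with mature mast cells of the same lineage. Progenitors had the lower level by 2-fold or more for 8 of the 46 genes, and the higher level by that much for 0. For Hnrnpm the lower level is below the array's median, and over that median its fold is at least 1.92, short of 2-fold, so the count holds 7 genes without it. The 8 were the hnRNP genes Hnrnpc, Hnrnpd, Hnrnph2, Hnrnpk, Hnrnpm and Hnrnpu, the SR gene Srsf5 and the SF3B gene Sf3b2. Over all genes 1.93% were at least 2-fold lower and 0.509% at least 2-fold higher in progenitors. At 4-fold, 3 members were lower, Hnrnpc, Hnrnph2 and Hnrnpu, and 0 were higher, against 0.834% and 0.113% of all genes. The members' shares, 17.4% at 2-fold and 6.52% at 4-fold, were above those of all genes.

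A larger share of bright genes than of all genes passed these sizes, so the counts were repeated among bright genes. A mean over the 3 arrays cannot choose them evenly, since 6 of the 13 members with a mean of at least 8 (Hnrnpc, Hnrnpd, Hnrnph2, Hnrnpu, Sf3b1 and Sf3b2) were under 8 in progenitors and passed only through the arrays where they were high. Bright genes were therefore chosen by a level of at least 8 on the array outside the comparison, here that of the innate lymphoid cells, a choice added after seeing the data. It gave 15 members among 811 genes. Of these, 7 members (46.7%) were at least 2-fold lower in progenitors, against 19.1% of the genes, and 0 were higher, against 3.33%. At 4-fold 3 members (20.0%) were lower, against 8.01%. These shares describe 3 arrays and were not tested.

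**Figure D2:**
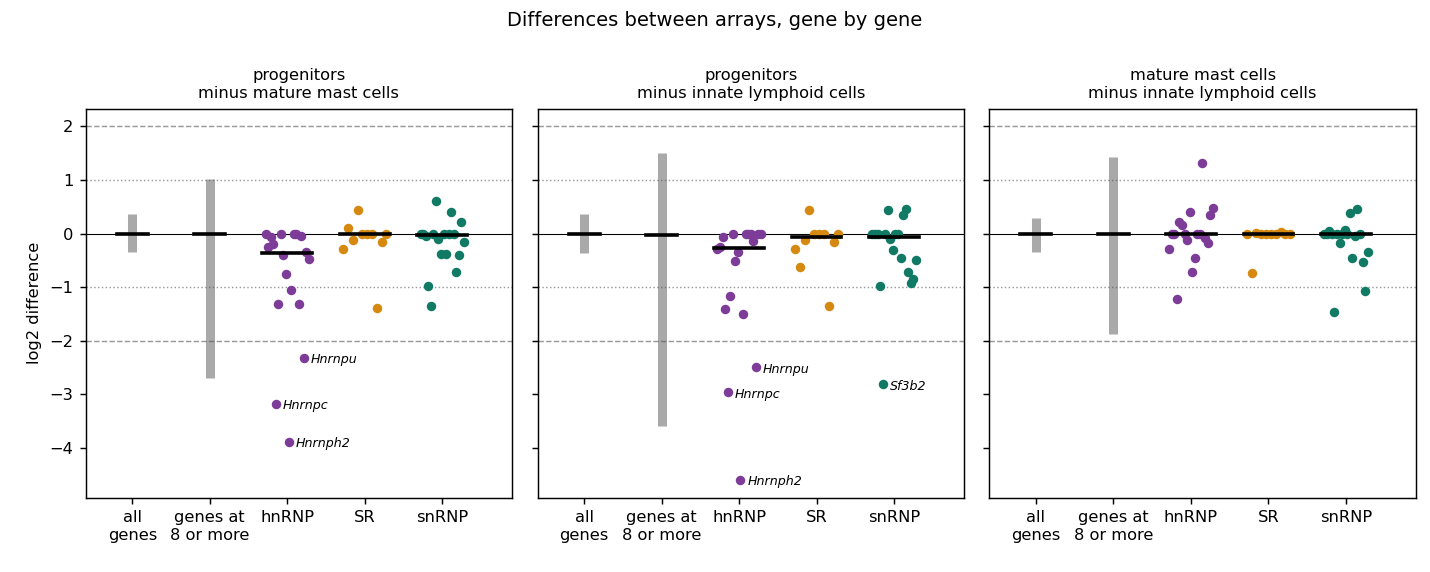
Log2 difference of each gene for the 3 comparisons of arrays, by family, with black bars at the medians. The grey bars span the 5th to 95th percentile over all 22180 genes and over the 693 genes with a mean level of at least 8, and the dotted and dashed lines mark 2-fold and 4-fold. In both comparisons with progenitors the hnRNP points lie at or below 0 as deposited (with quantile normalization 3 and 2 of the 18 were above it), and they lie on both sides of 0 between mature and innate lymphoid cells.

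Among the hnRNP genes, Hnrnpc showed a wide difference on a single probe set. It encodes the protein that binds uridine-rich stretches of nascent RNA and is known to keep cryptic exons from being spliced in. Its level was 6.92 in progenitors, against 10.09 in mature and 9.88 in innate lymphoid cells. The progenitor array was thus the low one, 9.03-fold under mature cells and 7.78-fold under innate lymphoid cells, while the other arrays were within 1.16-fold of each other.

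Hnrnpu, which encodes a scaffold-attachment protein of chromatin and nascent RNA, was also lowest on the progenitor array. Its level was 6.72 in progenitors, against 9.04 in mature and 9.22 in innate lymphoid cells, so progenitors were 4.99-fold and 5.65-fold lower. Its second probe set was dim, at 5.27 in both mast cell populations and 6.76 in innate lymphoid cells. That probe set was therefore tied between the mast cell populations and lower in progenitors than in innate lymphoid cells by a log2 difference of -1.497, and the mean of both gave a log2 difference of -1.16 between the mast cell populations.

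Hnrnph2, an X-linked gene whose protein binds runs of G, was at 5.77 in progenitors, against 9.65 in mature and 10.37 in innate lymphoid cells. The progenitor level was below its array's median, so the fold is given over that median, as at least 10.1-fold against mature cells and at least 16.6-fold against innate lymphoid cells. Its other probe set was below the median on all arrays, at 5.57, 5.80 and 5.57. For all but 5 of the 61 member probe sets some of the nearest-numbered named probe sets belong to genes of the same chromosome, but the bright probe set of Hnrnph2 is numbered among 10 of chromosome 4. Where it maps is not given in the sources used here. With the 5 probe sets numbered among other chromosomes left out, an alternative added after seeing the data, Hnrnph2 was not counted. Lower in progenitors were then 7 members at 2-fold and 2 at 4-fold against mature cells, and 7 and 3 against innate lymphoid cells. The hnRNP median was closer to 0, at -0.24 against mature cells and -0.19 against innate lymphoid cells.

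Hnrnpk, which encodes a K homology domain protein of transcription, splicing and translation, was at 10.16 in progenitors, against 11.22 in mature and 11.67 in innate lymphoid cells. Progenitors were 2.07-fold and 2.84-fold lower by this brightest probe set. All 3 probe sets of Hnrnpk were lower in progenitors by at least 2-fold in both comparisons, with log2 differences from -3.44 to -1.05 in each. The widest came from a probe set at 6.76, 10.19 and 10.19 that is numbered among genes of chromosome 7, whereas Hnrnpk lies on chromosome 13. The remaining one was at 6.57, 7.62 and 7.62.

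Hnrnpd, which encodes the AU-rich element binding protein AUF1, was at 7.40 in progenitors, against 8.72 in mature and 8.56 in innate lymphoid cells. This is 2.49-fold and 2.24-fold lower in progenitors. A second, dimmer probe set was at 6.68, 6.66 and 6.66, so the difference rests on the brighter one. Hnrnpm, a regulator of alternative exons, was at 5.94 in progenitors, against 7.26 in mature and 5.94 in innate lymphoid cells. Its level in progenitors and innate lymphoid cells was the same and below the arrays' medians, and mature cells stood alone above them, by at least 1.92-fold over the progenitor and 1.93-fold over the innate lymphoid median.

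Apart from Hnrnpab, which stood out in innate lymphoid cells and is described with them, the other hnRNP genes stayed within 2-fold by their brightest probe sets. Hnrnpa2b1, a binder of AGG-type motifs with roles in RNA transport, was at 9.32, 9.57 and 9.57 in progenitors, mature and innate lymphoid cells, a range of 1.18-fold. Hnrnpf, a relative of Hnrnph2, was at 11.16, 11.55 and 11.67, a range of 1.42-fold. Its 5 probe sets had log2 differences between progenitors and mature cells from -1.42 to -0.13, all of the same sign, and 1 of them reached 2-fold, at 7.37 against 8.80. The brightest Hnrnpf probe set is also numbered among genes of chromosome 4, whereas Hnrnpf lies on chromosome 6. Hnrnph1 was at 7.02, 7.77 and 7.37. Hnrnpdl, Hnrnpl and Hnrnpll were exactly tied on all 3 arrays, at 7.89, 7.13 and 6.91. Hnrnpul1 was at 6.64 in mature cells and 6.30 on both other arrays, and Hnrnpul2 at 6.96 and 6.49. Hnrnpa0, Hnrnpa3 and Hnrnpr stayed within 1.22-fold on all arrays. The second probe set of Hnrnpul1 was dim on all arrays, with a log2 level of 4.64 in both mast cell populations and 5.37 in innate lymphoid cells.

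By family, 14 of 18 hnRNP genes were lower in progenitors than in mature cells by any amount, 0 were higher and 4 were tied, with a median log2 difference of -0.37. Of all genes 12.6% were lower, 29.2% higher and 58.3% tied, with a median of 0.00. Among the 693 genes with a mean of at least 8, 48.6% were lower and 36.8% higher. With arrays set to one median all 18 were lower, but this was fixed by the shift. It moved every gene alike, to a median of -0.018 over all genes, so any tied gene turned lower. With quantile normalization 15 were lower and 3 higher, Hnrnpa0, Hnrnpdl and Hnrnpl, beside a median of -0.013 over all genes. The hnRNP median was below 0 in both.

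**Figure D3:**
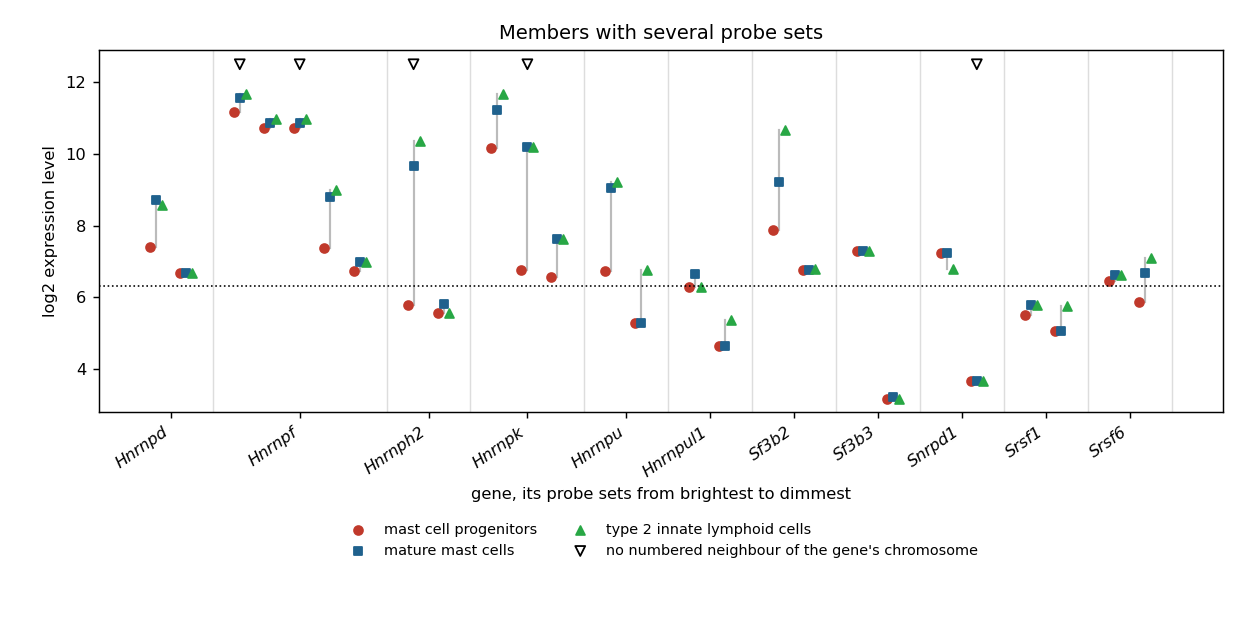
Log2 expression levels of the 11 genes that have several probe sets, ordered from brightest to dimmest within a gene, on the progenitor (circles), mature mast cell (squares) and innate lymphoid (triangles) arrays. Open triangles at the top mark the 5 probe sets whose nearest numbered neighbours include no gene of the same chromosome, and the dotted line is the mean of the arrays' medians. The 3 probe sets of Hnrnpk and the 5 of Hnrnpf all have the progenitor array lowest, while only the brighter probe set of Hnrnph2, Hnrnpd and Sf3b2 shows a wide difference.

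Among the SR genes Srsf5 alone reached 2-fold. Srsf5, an exon-binding SR protein gene, was at 8.997 in progenitors, against 10.38 in mature and 10.35 in innate lymphoid cells. Progenitors were 2.61-fold and 2.56-fold lower, and the other arrays were within 1.02-fold of each other. Srsf5 was also the only SR gene with a mean level of at least 8, so the remaining 9 were all read at dimmer levels.

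Of these 9, Srsf2, Srsf4 and Srsf9 were tied on all 3 arrays, at 6.87, 6.57 and 6.58. Srsf3, which encodes the smallest of the classical SR proteins and one that couples splicing to RNA export, was at 7.38, 7.38 and 7.39, and Srsf11 was at 7.33, 7.46 and 7.45. Srsf12 was the one SR gene higher in progenitors than in both other populations, at 6.88 against 6.43 and 6.43, or 1.36-fold. Srsf1, whose protein is the prototype of the family, was below the median on every array, at 5.50, 5.78 and 5.78, and Srsf10, which encodes a splicing repressor activated by dephosphorylation, was at 5.11, 5.01 and 5.75. Srsf6 was at 6.45, 6.61 and 6.61 by its brightest probe set, and a second probe set was at 5.86, 6.67 and 7.08, which is a log2 difference of -1.22 between progenitors and innate lymphoid cells. The family's median log2 difference between progenitors and mature cells was 0.00.

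Among the snRNP genes the Sm ring, the U1 and U2 particle genes and SF3A stayed within 2-fold between progenitors and mature cells, and Sf3b2 alone reached it. Sf3b2, a subunit of the SF3B complex, was at 7.86 in progenitors, against 9.21 in mature and 10.68 in innate lymphoid cells. Progenitors were 2.55-fold under mature cells and 7.03-fold under innate lymphoid cells, and mature cells were 2.76-fold under innate lymphoid cells, so the arrays were each over 2-fold apart. Its other probe set was at 6.76, 6.76 and 6.77, close to equal on all arrays, so the pattern rests on 1 probe set. Of the 10 nearest-numbered named probe sets, 3 were of the gene's chromosome 19 for the brighter one and 10 for the other. The brighter one was therefore kept when probe sets numbered among other chromosomes were left out, and where it maps was not settled. Sf3b1, which encodes the branch-point clamp of SF3B, was at 7.47 in progenitors and 8.44 in both other populations, 1.96-fold lower and so just short of 2-fold.

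The rest of SF3A and SF3B varied little. Sf3b5, a small SF3B subunit, was at 8.07, 8.18 and 8.18, a range of 1.08-fold. Sf3a1, Sf3a2 and Sf3b3 were tied on all arrays, and Sf3a3 was at 6.61, 6.66 and 6.61. Sf3b4 was below the median everywhere, at 4.81, 4.20 and 4.38. Sf3b6, whose protein contacts the branch-point adenosine, was at 6.06, 6.43 and 6.37.

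Of the 6 Sm ring genes measured, 0 reached 2-fold between progenitors and mature cells. Snrpd2 was at 7.07 in progenitors and 7.79 in both other populations, 1.64-fold lower. Snrpd3 was at 6.98, 7.38 and 7.91, and Snrpg at 8.97, 9.13 and 9.47, so in both the progenitor array was lowest and the innate lymphoid array highest, although with quantile normalization Snrpg was higher in progenitors than in mature cells by 0.026 on the log2 scale. Snrpe was at 7.78 in progenitors, against 7.57 in mature and 8.63 in innate lymphoid cells, and was thus higher in progenitors than in mature cells by 1.16-fold. Snrpb was at 7.06, 7.45 and 7.06, and Snrpd1 at 7.23, 7.23 and 6.78.

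Snrpc, which encodes the U1 protein that helps the particle hold the 5′ splice site, ran the other way to the large hnRNP differences. It was at 9.29 in progenitors, against 8.90 in mature and 8.94 in innate lymphoid cells, so progenitors were 1.32-fold and 1.27-fold higher. Of the 13 members with a mean of at least 8, Snrpc alone was highest in progenitors, but 6 of the 13 were under 8 there and could not be. Among the 693 genes with such a mean, 36.8% were higher in progenitors than in mature cells and 37.7% than in innate lymphoid cells. The U2 genes Snrpa1 and Snrpb2 were below the median on all arrays. Over the 18 snRNP genes the median log2 difference was -0.03, with 3 higher, 9 lower and 6 tied in progenitors.

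Progenitors were then set against type 2 innate lymphoid cells, the distant relative from the same cavity. Both comparisons use the same progenitor array, so their values stand side by side and do not support each other. Here 8 of 46 members were at least 2-fold lower in progenitors, against 1.88% of all genes, and 0 were at least 2-fold higher, against 0.766%. Chosen by the mature array, 13 members were among 788 bright genes, and 7 of them (53.8%) were lower, against 21.4% of the genes. At 4-fold 4 members were lower, Hnrnpc, Hnrnph2, Hnrnpu and Sf3b2, and 0 higher, against 0.888% and 0.207% of all genes. All 4 were bright on the mature array, which is 30.8% of the 13, against 12.6% of the 788 genes. With the mean of each gene's probe sets in place of the brightest, 2 members reached 4-fold.

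The genes past 2-fold were Hnrnpab, Hnrnpc, Hnrnpd, Hnrnph2, Hnrnpk, Hnrnpu, Srsf5 and Sf3b2. Hnrnpab, an A/B type protein gene linked to RNA transport, was at 7.01 in progenitors, against 7.21 in mature and 8.42 in innate lymphoid cells. The mast cell arrays were thus within 1.15-fold of each other, and progenitors were 2.66-fold and mature cells 2.32-fold under innate lymphoid cells. The family medians were -0.26 for hnRNP, -0.06 for SR and -0.06 for snRNP genes, against 0.00 for all genes and -0.03 for genes with a mean of at least 8. Within snRNP genes the Sm ring had a median of -0.61, led by Snrpd3 at 1.91-fold, Snrpe at 1.81-fold and Snrpd2 at 1.64-fold lower in progenitors. Snrpg was 1.41-fold lower, whereas Snrpb was tied and Snrpd1 was 1.37-fold higher in progenitors.

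Fewer of these genes differed between the mature mast cell and innate lymphoid arrays. At least 2-fold higher in mature cells was 1 member (2.17%), Hnrnpm (at least 1.93-fold over the median), against 1.34% of all genes. At least 2-fold lower were 3 (6.52%), Hnrnpab, Sf3b2 and Snrpe, against 1.26%. At 4-fold it was 0 members in either direction, against 0.573% of all genes higher and 0.401% lower. Chosen by the progenitor array, 7 members were among 619 bright genes, and 0 of them passed 2-fold in either direction, against 6.62% of the genes higher and 5.98% lower. With so few members, counts of 0 beside shares of this size do not set the members apart from other genes. Snrpe, a Sm ring gene, was 2.09-fold lower in mature cells. The medians of the 3 families were all 0.00, as was that of all genes. Tied were 18 of 46 members (39.1%), against 60.6% of all genes.

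**Figure D4:**
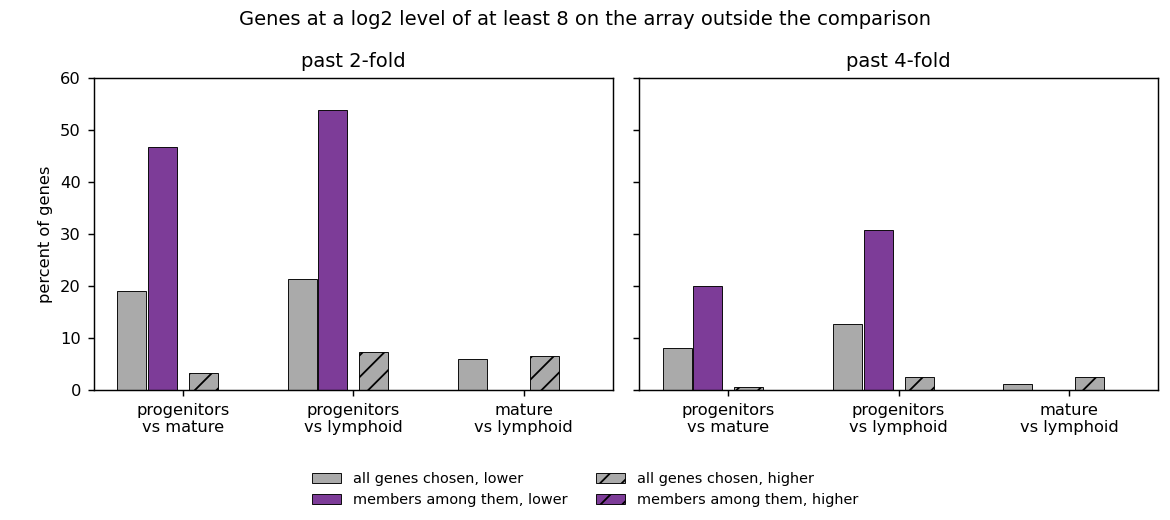
Percent of bright genes that were lower (plain bars) or higher (hatched bars) in the first-named population, past 2-fold on the left and past 4-fold on the right, for all genes chosen (grey) and the members among them (purple). Genes were chosen by a log2 level of at least 8 on the array outside the comparison, from left to right 811, 788 and 619 genes with 15, 13 and 7 members. At 2-fold 46.7% and 53.8% of the members were lower in progenitors, and no chosen member passed in any other direction or comparison.

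Other splicing genes were taken from 8 lists, which together had 156 measured genes. Between progenitors and mature cells 7 of these were at least 2-fold lower and 1 higher in progenitors, with 101 tied and a median of 0.00, where 1.93% of all genes were lower and 0.509% higher. Against innate lymphoid cells 7 were lower and 0 higher in progenitors, beside 1.88% and 0.766% of all genes. Between mature and innate lymphoid cells 3 were higher and 5 lower in mature cells, beside 1.34% and 1.26%. Of 21 SR-related genes, SR protein kinases and import factors, and of 11 genes of the SMN complex, which loads Sm rings onto RNA, 0 reached 2-fold in any comparison. Between progenitors and mature cells 15 of the 21 and 10 of the 11 were tied. Against innate lymphoid cells 13 and 11 were tied for progenitors, and 12 and 10 for mature cells. Beside such small shares of all genes, counts of 0 do not set these lists apart.

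Past 4-fold in some comparison were 6 of the 156. Progenitors were the lower array for 3 against mature and 3 against innate lymphoid cells, where 0.834% and 0.888% of all genes were. Between mature and innate lymphoid cells 2 were higher and 2 lower in mature cells, beside 0.573% and 0.401%. Lsm3 and Lsm5, which encode Sm-like ring proteins of the U6 particle and of RNA decay, stood out in mature cells. Lsm3 was at 6.14 in progenitors, against 9.49 in mature and 6.24 in innate lymphoid cells, and Lsm5 at 5.44, 7.81 and 5.44. Ddx39b, a helicase gene of spliceosome assembly and RNA export, was at 8.37, 11.42 and 11.90, but its other 2 probe sets differed by at most 0.06 on the log2 scale between the mast cell arrays and had log2 differences of -0.73 and -0.58 between progenitors and innate lymphoid cells.

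The remaining 3 were highest in innate lymphoid cells. Ddx5, an RNA helicase gene, was at 6.48 in progenitors, against 5.91 in mature and 9.88 in innate lymphoid cells. Rbm39, a U2AF-like splicing factor gene, was at 7.11, 8.25 and 9.89. Zcrb1, a gene of the minor spliceosome, was at 8.88, 8.56 and 10.62. Snrnp48, also of the minor spliceosome, was the one listed gene at least 2-fold higher in progenitors than in mature cells, at 8.67 against 7.64, with 8.98 in innate lymphoid cells.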

How the data were processed

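Total RNA of 100 sorted cells per population was amplified and biotinylated as whole-transcript cDNA and hybridised to 1 array each, per the labels' protocols. The authors deposited log2 levels for 41345 probe sets, and the submitters' processing notes name RMA as the method. Software version and genome build are not given in the sources used here. The log2 base was inferred from the range of the levels, 2.23 to 13.7. Of the probe sets 23521 name 1 gene, 1814 several genes and 16010 are unnamed in the table used. All 46 members matched the RefSeq table of GRCm38.p6 by Entrez identifier with the same symbol. That table gave chromosomes, and RefSeq the promoter windows. The 3 array differences, counts and medians were computed with pandas 2.3.3 and numpy 2.4.6 and figures with matplotlib 3.10.9, and the counting rule was checked on simulated data. Dim probe sets carry no mark, and background can shrink their differences. The number of arrays limits the precision.

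Members, lists and rules were chosen with earlier results of these data known. Named genes are members past 2-fold in some comparison, up to 3 bright members of each family with the smallest range, members whose probe sets disagree by over 1 log2 unit, and listed splicing genes past 4-fold. Snrnp48, the motifs, the promoters shown and the remaining members were added after values were seen. Alternatives were other floors, one median, quantile normalization, the mean of probe sets, RefSeq symbols and, chosen after seeing the data, leaving out probe sets numbered among other chromosomes and choosing bright genes by the array outside a comparison.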

Additional observations from a re-analysis of the deposited data

How the results depend on the processing

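Counts of members past 2-fold and 4-fold were within 1.5 times of the reported ones with no floor, with a floor at the 75th percentile, with arrays set to one median, with quantile normalization and with RefSeq symbols. The exception among all alternatives was the mean of a gene's probe sets, under which progenitors were under innate lymphoid cells by 4-fold or more for 2 members instead of 4. Since 11 members have several probe sets, this choice also took Hnrnpd and Sf3b2 under 2-fold between the mast cell populations, at log2 differences of -0.65 and -0.67, and Hnrnpu under 4-fold, at -1.16. Hnrnpk was at -0.91 there with quantile normalization. All 46 members already had the RefSeq symbol, and setting one median moved an array by at most 0.0103 on the log2 scale. Both of these alternatives could therefore change little. Of the members past 2-fold, none turned to the opposite sign in a comparison where it passed. Smaller differences did turn. Between mature and innate lymphoid cells Hnrnph2 went from -0.72 to 0.24 without probe sets numbered among other chromosomes, and Hnrnpul1 from 0.34 to -0.20 with the mean of its probe sets. With quantile normalization Hnrnpa2b1 went from -0.24 to 0.12 between progenitors and innate lymphoid cells, Snrpg from -0.16 to 0.026 between progenitors and mature cells, and Snrpc from -0.046 to 0.040 between mature and innate lymphoid cells.

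Family medians are given in the order hnRNP, SR, snRNP. With arrays set to one median they were -0.39, -0.018 and -0.045 between progenitors and mature cells, -0.28, -0.075 and -0.072 between progenitors and innate lymphoid cells, and 0.0056, 0.0056 and 0.0056 between mature and innate lymphoid cells. Quantile normalization gave -0.012 for SR genes in the first, -0.23 for hnRNP and -0.036 for snRNP genes in the second, and -0.0094, -0.0065 and -0.0089 in the third, so medians of 0.00 have no stable sign. The mean of probe sets gave -0.36 for hnRNP and -0.039 for snRNP genes in the first and -0.32 for hnRNP genes in the second. Leaving out probe sets numbered among other chromosomes gave -0.24 and -0.19 for hnRNP genes in the first and second. The cause of these shifts was not tested beyond the construction of each alternative. No array could be left out, since each population has 1.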
